A study of Mus musculus with 16 samples.

Results

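The genes described here carry the insulin signal inside the liver cell: the receptor Insr, the adaptors Irs1 and Irs2, the receptor inhibitor Grb14, the phosphoinositide 3-kinase (PI3K) subunit Pik3r1, the kinases Akt1 and Akt2, and the transcription factors Foxo1 and Foxo3. Their probe sets, the groups of short oligonucleotides by which an Affymetrix array reads a transcript, were taken by the gene symbol of the platform annotation, whatever their values. The genes themselves were chosen with earlier results of these data known. All 9 genes were on the array, with 19 of the 22626 probe sets tested and 9 of the 12393 genes that had a probe set. Foxo1 had 4 probe sets, Pik3r1 and Foxo3 had 3 each, Insr, Akt1 and Akt2 had 2 each, and Irs1, Irs2 and Grb14 had 1 each. Several probe sets of a gene share a source transcript, as both of Insr and all 3 of Pik3r1 do, so they are not independent readings of it.

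Liver RNA of male FvB/n mice was measured on 16 arrays in 2 experiments of 8 arrays. In the first experiment all mice carried TTR::Fv2E-PERK in a high expression line, 4 arrays came from AP20187-treated and 4 from untreated mice. The Fv2E-PERK chimera joins the kinase domain of PERK to a domain that the compound AP20187 dimerizes, and the transthyretin (Ttr) promoter drives it in liver. Active PERK phosphorylates the translation initiation factor eIF2 and so starts the integrated stress response. In the second experiment 2 arrays each came from high fat diet (HFD) Alb::GC, HFD wildtype, low fat diet (LFD) Alb::GC and LFD wildtype mice. GC is the C-terminal fragment of GADD34, which directs a phosphatase to eIF2, and the albumin promoter expresses it in hepatocytes. The labels give no age, diet length, dose or time after injection. Nor do they say that each array is its own animal, so the p-values rest on a spread between samples that may be technical.

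Insulin binding activates the receptor's tyrosine kinase, which phosphorylates the Irs adaptors, and these recruit PI3K, whose lipid product brings Akt kinases to the membrane. Akt phosphorylates FoxO proteins and keeps them out of the nucleus, and in the fasted liver nuclear FoxO drives genes of glucose production. In liver, Irs2 transcription is itself lowered by insulin and driven by FoxO factors.

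The deposited values are ratios around 1 for each probe set and array, with array medians of 0.94 to 1.02. The denominator of each ratio is not stated. A ratio holds no absolute level, so genes cannot be ranked by expression, the 2 experiments were each read on their own scale, and the liver label could not be checked by the level of its markers. For LFD wildtype replicate 2, where 1 label field carries both genotypes, and for AP20187 replicate 4, where 1 field is cut to a letter, the group was read from the description. Differences are AP20187 minus untreated, HFD minus LFD and Alb::GC minus wildtype on the scale log2(ratio + 0.05), with the standard error (SE) of limma's fit over all probe sets, and a probe set counts as changed at a Benjamini-Hochberg adjusted p under 0.05.

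AP20187 treatment went with higher transcript ratios at several steps of the pathway. Irs2, Irs1, all 3 Pik3r1 probe sets, 3 of 4 Foxo1 and all 3 Foxo3 probe sets rose, and the inhibitor Grb14 fell. Insr, Akt1 and Akt2 did not pass the test. In all, 11 of 19 probe sets rose, 1 fell and 7 did not pass (limma). That is 63.2% of the probe sets, where 34.1% of all 22626 probe sets passed, 13.7% upward and 20.4% downward. Their median log2 difference was 1.16, where the median over all probe sets was -0.13. The 4 treated and 4 untreated arrays did not overlap for 11 of the 19 probe sets, where 35% of all probe sets showed no overlap. The 11 rises come from 5 genes, and probe sets of a gene are not independent readings. The genes were also chosen with earlier results of these data known. For both reasons these shares of all probe sets are not a like comparison.

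**Figure D1:**
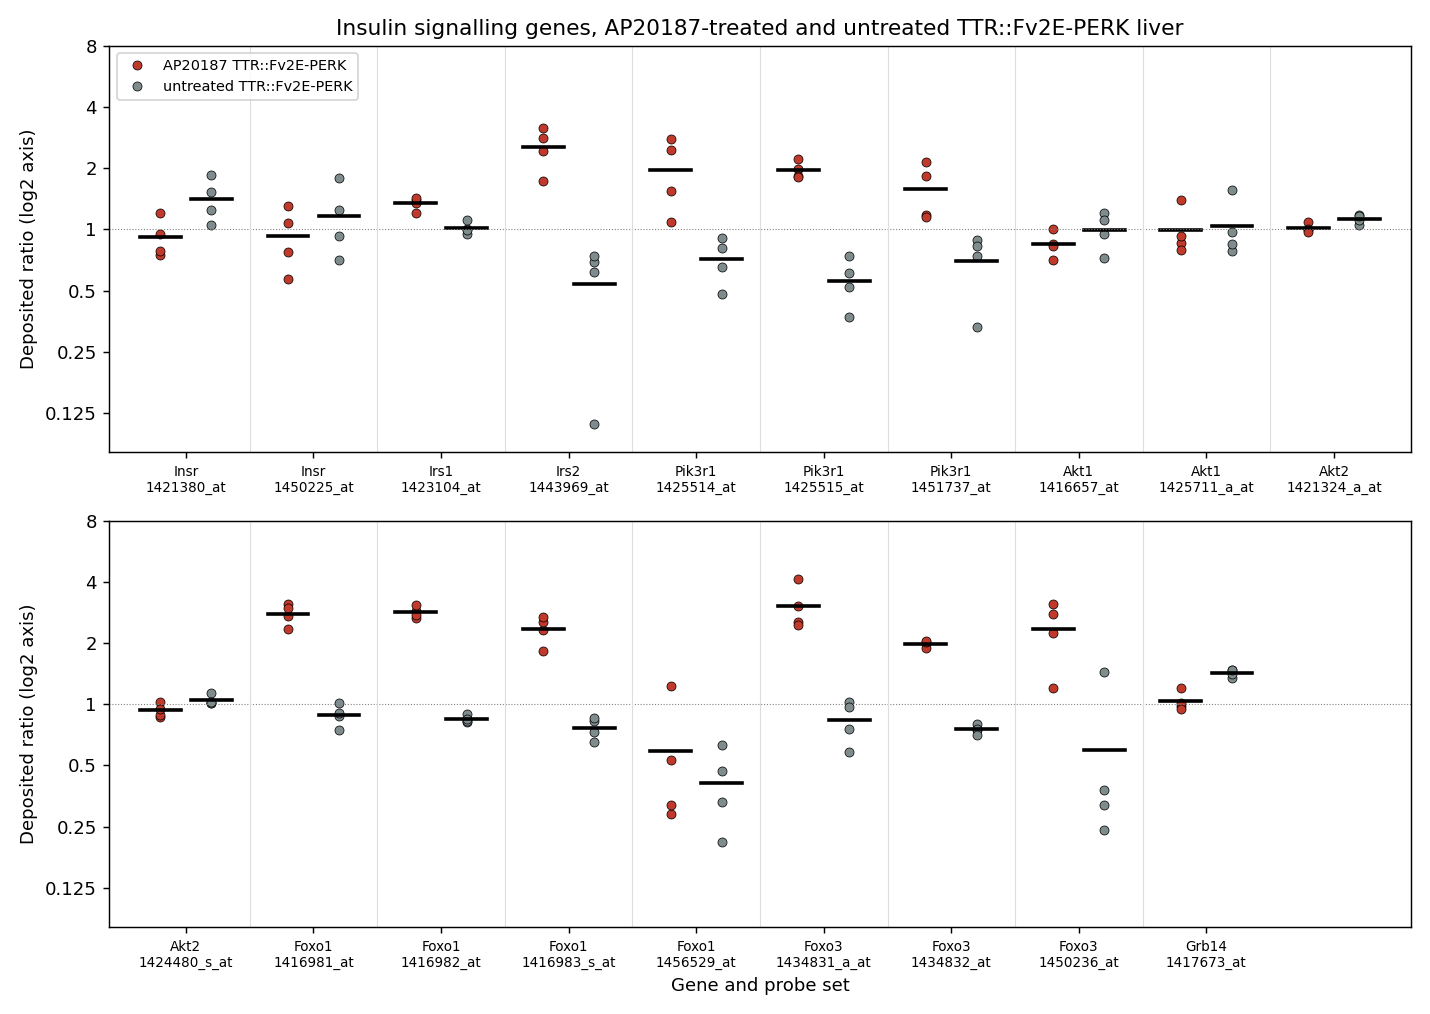
Deposited ratios of the 19 probe sets on a log2 axis, with 1 point for each array (AP20187-treated red, untreated grey, n = 4 each) and a bar at the mean ratio. Treated arrays stand above all untreated arrays for Irs1, Irs2, Pik3r1 and for most Foxo1 and Foxo3 probe sets, below them for Grb14, and among them for Insr, Akt1 and Akt2.

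Insr encodes the insulin receptor. Its probe set 1421380_at had ratios of 1.20, 0.95, 0.75 and 0.78 in AP20187-treated livers, against 1.25, 1.52, 1.85 and 1.05 in untreated livers. Treated replicate 1 lay above untreated replicate 4, so the groups overlapped. The log2 difference was -0.59 ± 0.20 (SE, n = 4 and 4) and missed the threshold (limma adjusted p = 0.0565). Leaving out either of those arrays brought it past the threshold, at -0.72 with an adjusted p of 0.0333 without treated replicate 1 and -0.72 with an adjusted p of 0.0321 without untreated replicate 4. After quantile normalization it was -0.48 (adjusted p = 0.154), and with the 3′ minus 5′ beta-actin difference of each array as a covariate it was 0.04 (adjusted p = 0.95), so neither its call nor its direction is stable. The other probe set, 1450225_at, spanned 0.57 to 1.30 in treated livers and 0.71 to 1.79 in untreated livers, with a difference of -0.30 ± 0.33 (limma adjusted p = 0.537).

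Irs2 is an adaptor that the receptor phosphorylates and that docks PI3K. Its ratios were 3.16, 2.81, 1.74 and 2.43 in AP20187-treated livers, against 0.62, 0.69, 0.74 and 0.11 in untreated livers. Every treated array exceeded every untreated one, and untreated replicate 4 lay far below the other untreated arrays. Irs2 rose by 2.34 ± 0.50 on the log2 scale, or 5.05-fold (limma adjusted p = 0.00834). Without untreated replicate 4 the difference was 1.79.

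The related adaptor Irs1 moved less. Its ratios were 1.39, 1.35, 1.43 and 1.21 in AP20187-treated livers, against 0.95, 1.01, 1.11 and 0.99 in untreated livers. The 2 groups were narrow and did not overlap. Irs1 rose by 0.39 ± 0.08, or 1.31-fold (limma adjusted p = 0.00873).

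Grb14 binds the activated receptor and inhibits its kinase. Its ratios were 1.20, 0.98, 1.02 and 0.95 in AP20187-treated livers, against 1.48, 1.35, 1.41 and 1.47 in untreated livers, with no overlap. Grb14 fell by 0.45 on the log2 scale (SE 0.09), or 1.36-fold (limma adjusted p = 0.00618). Relative to the median of all probe sets, which was itself below 0, it fell by 0.39 (limma adjusted p = 0.00967 after median centring). After quantile normalization Grb14 fell short of the threshold, at -0.26 with an adjusted p of 0.0995.

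Pik3r1 encodes the main regulatory subunit of PI3K, which docks the enzyme on the Irs adaptors. Probe set 1425515_at had ratios of 1.99, 2.22, 1.84 and 1.81 in AP20187-treated livers, against 0.74, 0.52, 0.61 and 0.37 in untreated livers. For 1425514_at the ratios were 2.80, 2.45, 1.09 and 1.54 in treated livers, against 0.65, 0.81, 0.91 and 0.48 in untreated livers. With 1451737_at they were 2.14, 1.84, 1.18 and 1.15 in treated livers, against 0.74, 0.89, 0.83 and 0.33 in untreated livers. No treated array lay below an untreated one in any of the 3 probe sets, and treated replicates 3 and 4 stood nearest to the untreated arrays in 1425514_at and 1451737_at. The rise was 1.76 ± 0.19 for 1425515_at (3.38-fold, limma adjusted p = 0.000345). It was 1.35 ± 0.31 for 1425514_at (2.55-fold, limma adjusted p = 0.0118) and 1.16 ± 0.33 for 1451737_at (2.23-fold, limma adjusted p = 0.0277). The call for 1451737_at was lost without treated replicate 1 (adjusted p = 0.075) or treated replicate 2 (adjusted p = 0.0768).

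Akt1 and Akt2 encode the kinases downstream of PI3K, Akt2 being the form tied to glucose metabolism. Akt2 1421324_a_at had ratios of 1.09, 1.01, 0.99 and 0.97 in AP20187-treated livers, against 1.18, 1.05, 1.11 and 1.17 in untreated livers. Akt2 1424480_s_at had 0.87, 0.89, 1.03 and 0.95 in treated livers, against 1.01, 1.14, 1.02 and 1.03 in untreated livers. Treated arrays overlapped the untreated ones in both. The differences were -0.14, with a 95% interval of -0.33 to 0.04, and -0.16, with an interval of -0.37 to 0.05 (limma adjusted p = 0.206 and 0.229). For Akt1 the intervals were -0.62 to 0.21 for 1416657_at and -0.62 to 0.53 for 1425711_a_at, and both probe sets overlapped between groups.

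Foxo1 and Foxo3 encode the forkhead factors that Akt phosphorylates. Foxo1 1416982_at had ratios of 2.88, 3.09, 2.67 and 2.74 in AP20187-treated livers, against 0.82, 0.90, 0.83 and 0.85 in untreated livers. Foxo1 1416981_at had 3.10, 2.73, 2.36 and 2.99 in treated livers, against 0.88, 0.75, 0.91 and 1.02 in untreated livers. Foxo1 1416983_s_at had 2.31, 2.53, 1.84 and 2.69 in treated livers, against 0.83, 0.73, 0.65 and 0.86 in untreated livers. In all 3 probe sets the lowest treated ratio was well above the highest untreated ratio. Foxo1 rose by 1.68 ± 0.09 (3.21-fold, limma adjusted p = 5.74e-05), 1.60 ± 0.13 (3.03-fold, adjusted p = 0.000115) and 1.54 ± 0.14 (2.91-fold, adjusted p = 0.000174) in these probe sets. The fourth, 1456529_at, spanned 0.29 to 1.23 in treated livers and 0.21 to 0.63 in untreated livers. Its groups overlapped, with treated replicate 4 above all other arrays, and its difference was 0.35 with an interval of -0.81 to 1.52 (limma adjusted p = 0.646).

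Foxo3 1434832_at gave tight groups. Its ratios were 1.98, 1.90, 2.02 and 2.05 in AP20187-treated livers, against 0.80, 0.75, 0.76 and 0.71 in untreated livers, a rise of 1.34 ± 0.07 (2.53-fold, limma adjusted p = 5.74e-05). Foxo3 1434831_a_at had 2.53, 2.47, 4.16 and 3.05 in treated livers, against 0.76, 1.03, 0.58 and 0.97 in untreated livers, a rise of 1.81 ± 0.22 (3.51-fold, limma adjusted p = 0.000643). The treated arrays stood above the untreated ones in both. Foxo3 1450236_at was wider, with 1.20, 3.11, 2.25 and 2.79 in treated livers, against 0.24, 1.45, 0.38 and 0.32 in untreated livers. Untreated replicate 2 lay above treated replicate 1 there, and the rise was 2.14 ± 0.53 (4.39-fold, limma adjusted p = 0.0154).

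**Figure D2:**
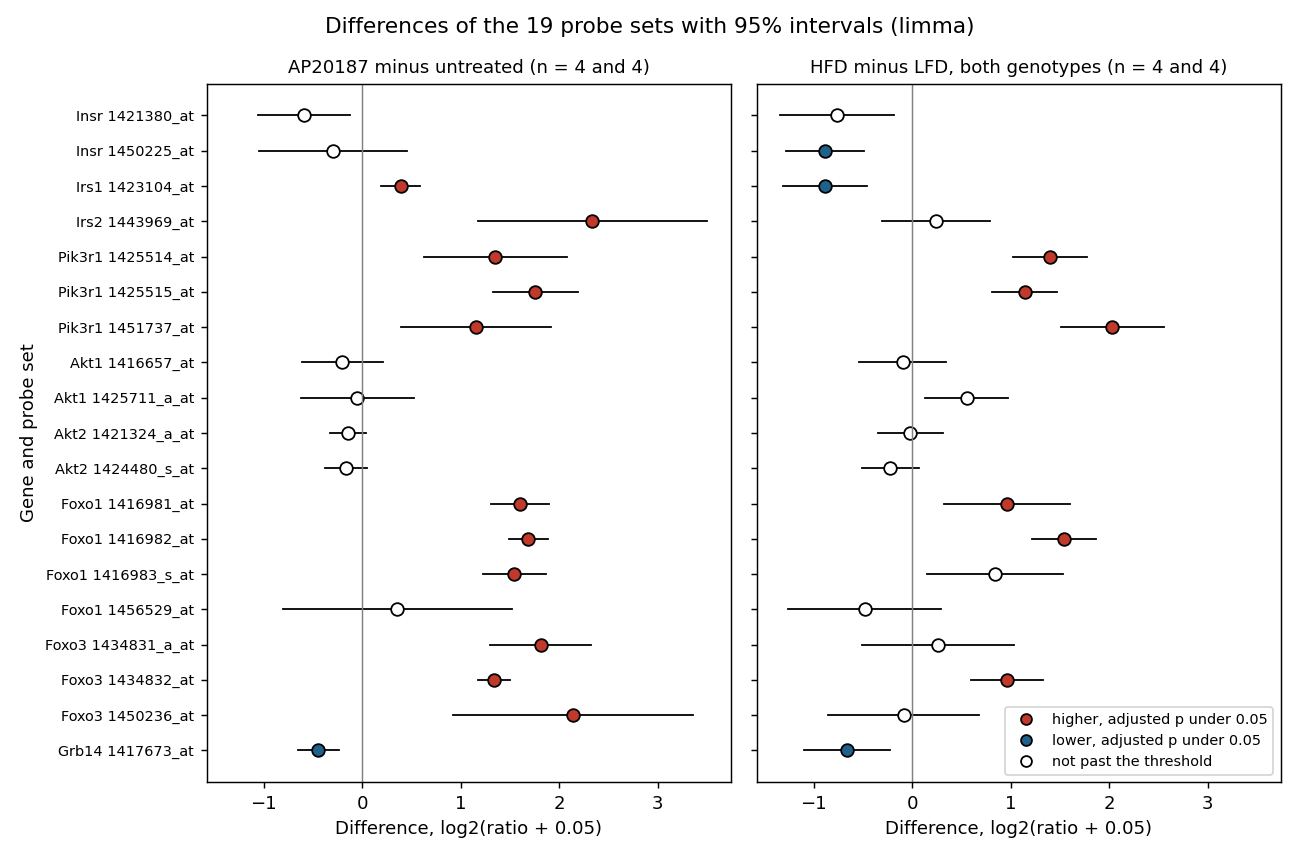
Differences of the 19 probe sets on the log2(ratio + 0.05) scale with limma's 95% intervals, AP20187 minus untreated on the left and HFD minus LFD averaged over genotypes on the right, n = 4 and 4 arrays in each. Filled points passed an adjusted p of 0.05 (red higher, blue lower): 11 higher and 1 lower on the left, 6 higher and 3 lower on the right.

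The start regions of Irs1, Irs2, Pik3r1, Foxo1 and Foxo3 are shown because these genes rose together under AP20187. Each line gives the 250 bases before an annotated start, 5′ to 3′ along the gene, from RefSeq on GRCm38.p6. Capitals mark TGACG, the core of the cAMP response element (CRE), read as CGTCA on the other strand. Of 3 motifs searched it alone had a match in them, and Irs2, Foxo1 and Pik3r1 window 2 had no match.
Irs1 chr1:82291440-82291689, minus strand: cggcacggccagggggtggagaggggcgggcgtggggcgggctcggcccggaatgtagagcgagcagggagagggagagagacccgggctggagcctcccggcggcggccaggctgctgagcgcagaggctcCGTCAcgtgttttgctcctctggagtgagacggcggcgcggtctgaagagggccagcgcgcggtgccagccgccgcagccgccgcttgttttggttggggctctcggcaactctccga
Irs2 chr8:11008930-11009179, minus strand: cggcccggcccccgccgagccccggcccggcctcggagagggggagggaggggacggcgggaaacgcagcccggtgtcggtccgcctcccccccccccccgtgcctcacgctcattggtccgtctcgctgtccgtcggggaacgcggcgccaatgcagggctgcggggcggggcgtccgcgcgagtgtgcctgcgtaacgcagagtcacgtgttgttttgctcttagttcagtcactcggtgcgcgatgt
Pik3r1 window 1 chr13:101692631-101692880, minus strand: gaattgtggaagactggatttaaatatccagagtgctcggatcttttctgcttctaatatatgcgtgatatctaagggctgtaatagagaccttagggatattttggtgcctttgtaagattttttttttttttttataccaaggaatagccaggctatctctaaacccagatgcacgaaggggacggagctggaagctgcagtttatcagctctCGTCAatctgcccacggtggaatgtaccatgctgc
Pik3r1 window 2 chr13:101768218-101768467, minus strand: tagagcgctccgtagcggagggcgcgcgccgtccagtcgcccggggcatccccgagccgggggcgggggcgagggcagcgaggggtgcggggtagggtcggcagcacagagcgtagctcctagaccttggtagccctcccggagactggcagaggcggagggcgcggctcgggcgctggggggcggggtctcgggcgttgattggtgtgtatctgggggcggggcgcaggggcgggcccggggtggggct
Foxo1 chr3:52268087-52268336, plus strand: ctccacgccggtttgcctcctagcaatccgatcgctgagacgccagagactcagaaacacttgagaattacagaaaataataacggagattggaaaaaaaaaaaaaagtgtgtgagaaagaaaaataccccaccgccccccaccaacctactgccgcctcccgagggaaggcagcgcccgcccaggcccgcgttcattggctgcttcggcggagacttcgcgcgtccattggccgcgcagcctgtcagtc
Foxo3 chr10:42276696-42276945, minus strand: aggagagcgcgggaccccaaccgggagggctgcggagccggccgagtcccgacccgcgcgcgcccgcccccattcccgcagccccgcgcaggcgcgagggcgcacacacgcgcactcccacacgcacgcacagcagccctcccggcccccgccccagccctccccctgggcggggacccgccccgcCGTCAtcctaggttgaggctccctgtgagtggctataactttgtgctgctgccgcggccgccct
The CRE core, bound by CREB and ATF factors, stood 35 to 31 bases before the first Pik3r1 start, 64 to 60 bases before the Foxo3 start and 118 to 114 bases before the Irs1 start. It was in 17.8% of all 32851 windows of this length. The forkhead motif GTAAACA (3.17% of windows) and the ATF4 core TGATGNAA (3.45% of windows), searched on both strands, had no match in these 6 windows. No match says only that these letters are not in the window. The windows differed in base composition, with 42.4% G and C in Pik3r1 window 1, 56% in Foxo1, 72.4% in Irs1, 72.8% in Irs2 and 76.4% in Foxo3 and in Pik3r1 window 2, beside a median of 52.4% over all windows. Of the 9 genes, 8 had windows in the table, 13 in all. Akt2, which did not pass the test, held the CRE core in windows 1 and 3 and the ATF4 core in window 3. Akt1, which did not pass either, held the forkhead motif in window 2. The CRE core was thus not particular to the genes that rose, and its part in the rise was not tested.

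Other measures moved with AP20187 beside these genes. The mean ratio of 9 hepatocyte markers was 0.918 to 1.05 in treated livers and 1.28 to 1.45 in untreated livers, with 1 marker higher and 6 lower. The mean of 9 macrophage markers was 0.764 to 1.04 in treated livers and 1.18 to 1.27 in untreated livers, with 5 lower. That of 8 stellate cell and fibroblast markers was 0.855 to 0.999 in treated livers and 1.51 to 1.86 in untreated livers, with 5 lower. Means of endothelial, neutrophil and pancreas markers also did not overlap and were lower in treated livers, with 3 of 7, 0 of 4 and 1 of 4 markers past the test. Of all probe sets 13.7% rose and 20.4% fell, and the arrays of 35% did not overlap. A mean of several markers is not a like measure to a single probe set. Cholangiocyte, lymphocyte, adipocyte and skeletal muscle means overlapped. In such bulk tissue, fewer cells of a type and less RNA per cell cannot be told apart, and the part of these shifts in the results was not tested. The 3′ minus 5′ difference of the beta-actin control, a measure of RNA integrity on the array, was -0.04 to 0.15 in treated livers and -0.18 to -0.02 in untreated livers. With it as a covariate, 8 of the 12 calls held. Those lost were Irs1 (0.45, limma adjusted p = 0.144), Foxo3 1434831_a_at (1.34, adjusted p = 0.0815), Foxo3 1450236_at (1.21, adjusted p = 0.468) and Grb14 (-0.24, adjusted p = 0.368). Without the covariate these differences were 0.39, 1.81, 2.14 and -0.45, so that of Irs1 did not shrink. Only untreated replicate 4 lay above a treated array in this measure, so the covariate ran nearly along the treatment. A call lost in this fit cannot be told apart from lost precision.

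The rest of the pathway was read from 8 lists of 68 genes, of which 57 were measured, with 1 probe set a gene. Under AP20187, 15 of the 57 rose, 18 fell and 24 did not pass the test, with a median difference of -0.02, where 13.7% of all probe sets rose and 20.4% fell. With the beta-actin covariate, which ran nearly along the treatment, 6 rose and 4 fell. The share of all probe sets that passed in that fit is not given, so the drop is not a result about these genes. Each gene was read by its probe set of smallest spread within groups, which favours a pass. The lists were also chosen with earlier results of these data known. For both reasons the shares of all probe sets are not a like comparison for these counts.

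Of 9 inhibitors of the pathway measured, 5 rose and 2 fell. Trib3, a pseudokinase that binds Akt and a known target of the integrated stress response, had ratios of 0.97, 1.02, 1.29 and 0.98 in AP20187-treated livers, against 0.03, 0.04, 0.03 and 0.04 in untreated livers, a rise of 3.71 ± 0.26 (limma adjusted p = 9.85e-05). The untreated ratios of Trib3 are below the offset of 0.05, which makes this difference smaller than the ratios give. Socs3, a feedback inhibitor of receptor signalling, rose by 2.27 ± 0.11 (limma adjusted p = 5.74e-05), and the phosphatase gene Ptpn2 by 1.75 ± 0.13 (adjusted p = 9.97e-05). Ptprf, which encodes a receptor-type phosphatase, went the other way, with ratios of 0.85, 0.83, 0.98 and 0.99 in treated livers, against 4.26, 4.02, 4.07 and 4.73 in untreated livers. Ptprf fell by 2.17 on the log2 scale (limma adjusted p = 8.5e-05).

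Among ligands and binding proteins, 1 of 7 rose and 4 fell. Igfbp1, an IGF-binding protein whose gene insulin represses and FoxO drives, had ratios of 1.21, 1.12, 1.20 and 1.31 in AP20187-treated livers, against 0.34, 0.46, 0.52 and 0.22 in untreated livers, and rose by 1.59 ± 0.25 (limma adjusted p = 0.00208). Igfbp3 fell by 1.32 and Igfals, its partner in the circulating IGF complex, by 1.01 (limma adjusted p = 0.00191 and 0.000622). Igfbp4 fell by 0.31 (limma adjusted p = 0.0212). Of 5 receptors and clearance genes, 3 fell: the IGF2 receptor gene Igf2r by 1.15, Ceacam1, which promotes hepatic insulin clearance, by 0.78, and the insulin protease gene Ide by 0.76 (limma adjusted p = 8.83e-05, 0.00045 and 0.00117). Ceacam1 has 8 probe sets, Ide 4 and Igf2r 2, and only 1 of each is given here for AP20187. The same holds for other pathway genes with several probe sets, whose agreement under AP20187 is not described.

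Of 9 other adaptors, 3 rose and 1 fell. Gab1 rose by 0.62, Sos1 by 0.58 and Grb7 by 0.44, and Shc1 fell by 0.63 (limma adjusted p = 0.00928, 0.000733, 0.0101 and 0.00191). Of 4 other PI3K subunits and PDK1, 1 fell, Pik3r2, a second regulatory subunit, by 0.42 (limma adjusted p = 0.0209), beside the rises of Pik3r1 above. Of 11 downstream kinases and their regulators, 2 rose and 3 fell. Tsc2, a brake on mTOR, fell by 1.17 and the mTOR kinase gene Mtor by 0.42, while Prkci, an atypical protein kinase C gene, rose by 0.41 and Gsk3b by 1.08 (limma adjusted p = 0.000261, 0.0207, 0.0222 and 0.0428).

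The FoxO list holds Foxo4, genes known to be driven by FoxO factors, and Foxa2, a forkhead factor of another family. Of its 8 measured genes, 3 rose and 2 fell, Foxa2 being among those that rose. Pdk4, a kinase that restrains pyruvate oxidation, had ratios of 1.63, 3.06, 0.61 and 0.74 in AP20187-treated livers, against 0.10, 0.12, 0.17 and 0.14 in untreated livers, a rise of 2.83 ± 0.51 (limma adjusted p = 0.00348). The glucose-6-phosphatase gene G6pc had 1.07, 0.97, 0.99 and 1.02 in treated livers, against 1.34, 1.35, 1.29 and 1.28 in untreated livers, and fell by 0.36 (limma adjusted p = 0.0046). Sesn3 fell by 1.24 and Foxa2 rose by 1.10 (limma adjusted p = 0.000391 and 0.000374). Of 4 insulin-induced liver genes, Pnpla3 rose by 1.30, and Fasn, the fatty acid synthase gene, and its activator Srebf1 fell by 2.04 and 0.90 (limma adjusted p = 0.000996, 0.000261 and 0.00163).

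**Figure D3:**
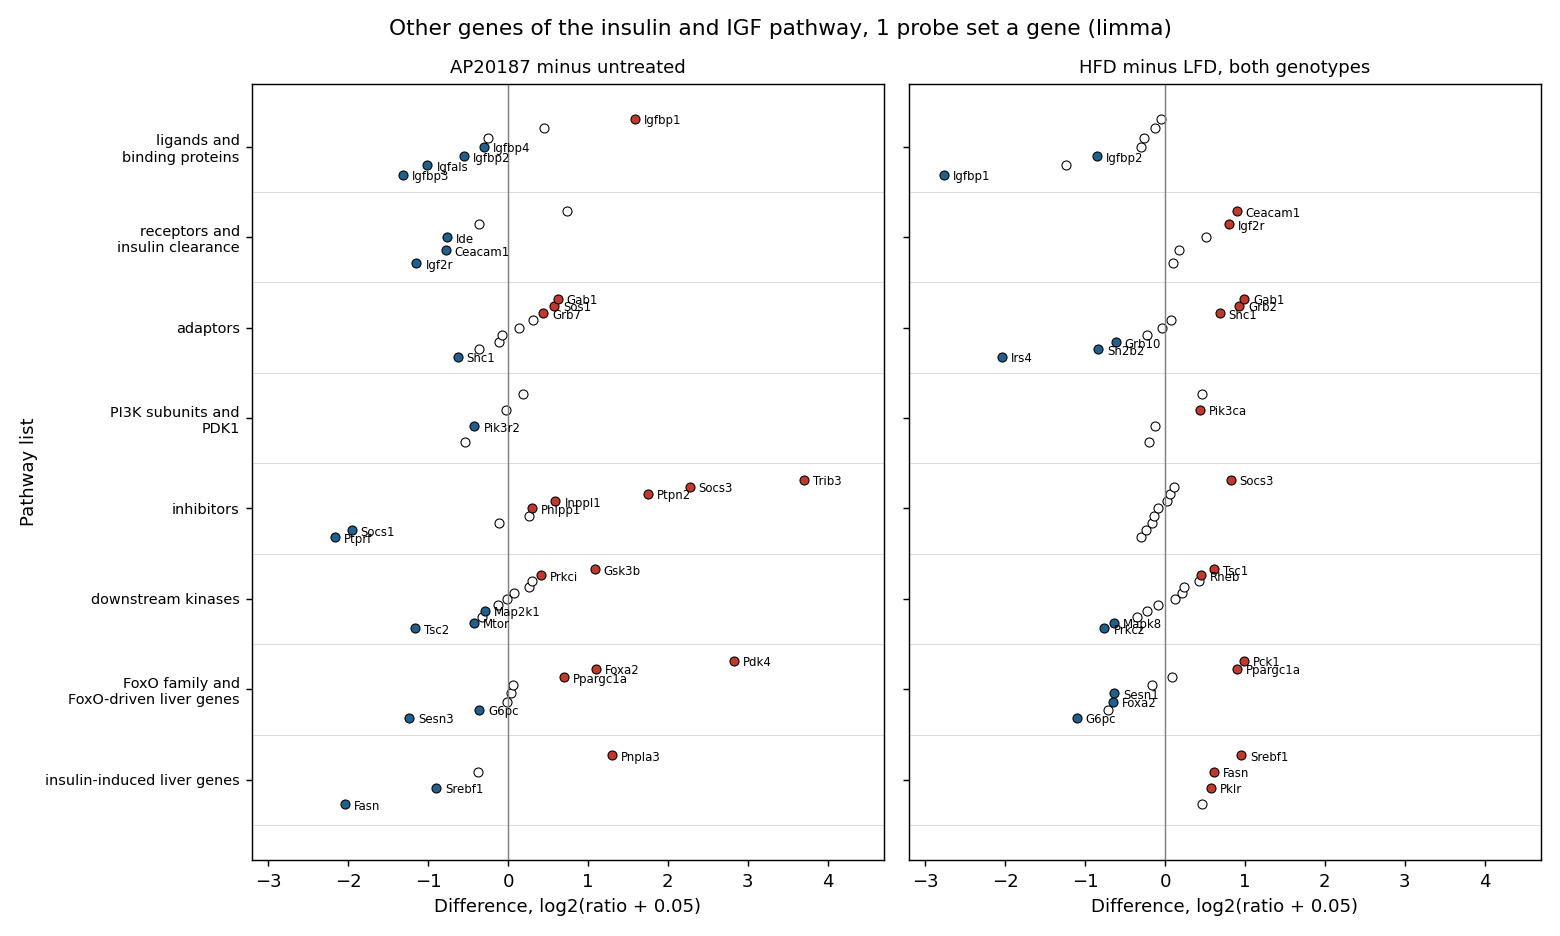
Differences of the 57 other pathway genes on the log2(ratio + 0.05) scale, 1 probe set a gene, by list, AP20187 minus untreated on the left and HFD minus LFD averaged over genotypes on the right. Filled and named points passed an adjusted p of 0.05 (red higher, blue lower): 15 higher and 18 lower on the left, 14 higher and 10 lower on the right.

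The high fat diet was set against the low fat diet over both genotypes, 4 arrays against 4. All 3 Pik3r1 probe sets, 2 of 4 Foxo1 and 1 of 3 Foxo3 probe sets rose, and Irs1, 1 of 2 Insr probe sets and Grb14 fell. Irs2, Akt1 and Akt2 did not pass the test. Thus 6 of 19 rose, 3 fell and 10 did not pass (limma), or 47.4%, where 27.5% of all probe sets passed, 13.5% upward and 14% downward. The median difference of the 19 was 0.24, and that of all probe sets -0.07. HFD and LFD arrays did not overlap for 12 of 19 probe sets, where 28.8% of all probe sets showed none. As with AP20187, these shares of all probe sets are not a like comparison for the members.

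**Figure D4:**
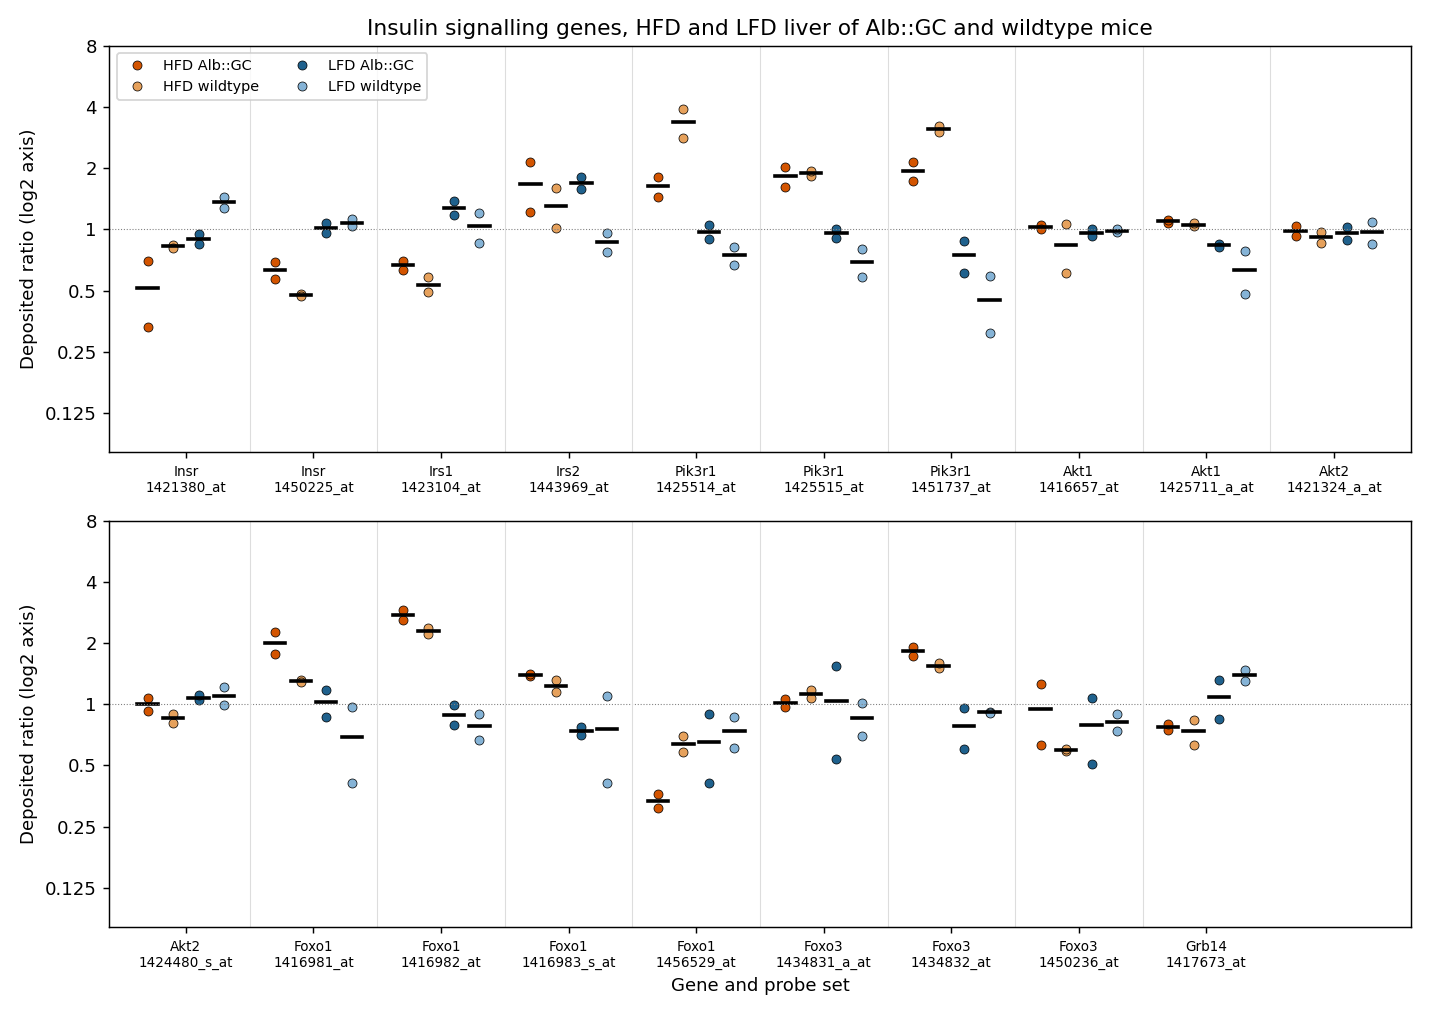
Deposited ratios of the 19 probe sets on a log2 axis, with 1 point for each array of the HFD Alb::GC, HFD wildtype, LFD Alb::GC and LFD wildtype groups (n = 2 each) and a bar at the mean ratio. The 3 Pik3r1 probe sets and Foxo1 1416982_at are higher in every HFD array than in every LFD array, and Irs1 and Insr 1450225_at are lower.

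The receptor gene Insr was lower on HFD. Its probe set 1450225_at had ratios of 0.69 and 0.57 in HFD Alb::GC and 0.48 and 0.47 in HFD wildtype livers, against 1.08 and 0.96 in LFD Alb::GC and 1.04 and 1.12 in LFD wildtype livers. All 4 HFD arrays lay below all 4 LFD arrays. It fell by 0.88 on the log2 scale (SE 0.16), or 1.84-fold (limma adjusted p = 0.0143). Insr 1421380_at had 0.33 and 0.70 in HFD Alb::GC and 0.84 and 0.81 in HFD wildtype livers, against 0.85 and 0.95 in LFD Alb::GC and 1.28 and 1.45 in LFD wildtype livers. Its groups just failed to overlap, and its difference of -0.76 ± 0.24 missed the threshold (limma adjusted p = 0.0587). It passed without HFD Alb::GC replicate 2 (-1.01, adjusted p = 0.0239) and with an offset of 0.25 (adjusted p = 0.0488).

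Irs1 had ratios of 0.63 and 0.70 in HFD Alb::GC and 0.49 and 0.58 in HFD wildtype livers, against 1.38 and 1.18 in LFD Alb::GC and 1.21 and 0.86 in LFD wildtype livers. The highest HFD array lay below the lowest LFD array. Irs1 fell by 0.88 (SE 0.18), or 1.85-fold (limma adjusted p = 0.017), and the call was lost without LFD Alb::GC replicate 1 (adjusted p = 0.0555) or HFD Alb::GC replicate 1 (adjusted p = 0.0504). Irs2 had 1.22 and 2.14 in HFD Alb::GC and 1.60 and 1.02 in HFD wildtype livers, against 1.82 and 1.58 in LFD Alb::GC and 0.77 and 0.96 in LFD wildtype livers. The LFD Alb::GC arrays lay among the HFD arrays, and the difference for Irs2 was 0.24 with an interval of -0.31 to 0.79 (limma adjusted p = 0.454).

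Grb14 had ratios of 0.75 and 0.80 in HFD Alb::GC and 0.63 and 0.84 in HFD wildtype livers, against 0.85 and 1.32 in LFD Alb::GC and 1.48 and 1.30 in LFD wildtype livers. The lowest LFD array was close to the highest HFD array. Grb14 fell by 0.66 (SE 0.18), or 1.58-fold (limma adjusted p = 0.0402). The call did not hold after quantile normalization (adjusted p = 0.0521), and it was lost in 7 of 8 refits that each left out 1 array, with adjusted p-values of 0.0588 to 0.104.

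Pik3r1 gave the largest HFD difference of the 19 probe sets. Its 1451737_at had ratios of 1.74 and 2.14 in HFD Alb::GC and 3.24 and 3.03 in HFD wildtype livers, against 0.88 and 0.61 in LFD Alb::GC and 0.59 and 0.31 in LFD wildtype livers. Its 1425514_at had 1.82 and 1.45 in HFD Alb::GC and 3.92 and 2.82 in HFD wildtype livers, against 1.05 and 0.90 in LFD Alb::GC and 0.82 and 0.67 in LFD wildtype livers. Its 1425515_at had 1.61 and 2.04 in HFD Alb::GC and 1.84 and 1.93 in HFD wildtype livers, against 1.01 and 0.91 in LFD Alb::GC and 0.80 and 0.58 in LFD wildtype livers. All HFD arrays stood above all LFD arrays in each. The rises were 2.03 ± 0.22 (4.09-fold), 1.40 ± 0.15 (2.64-fold) and 1.14 ± 0.14 (2.21-fold), with limma adjusted p-values of 0.0034, 0.0037 and 0.00443.

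Within wildtype livers alone, all 3 Pik3r1 probe sets rose on HFD, by 2.73 ± 0.31, 2.09 ± 0.22 and 1.40 ± 0.19 (limma adjusted p = 0.00755, 0.00677 and 0.0118, n = 2 and 2 arrays). Within Alb::GC livers the differences in the same order were 1.34 ± 0.31, 0.71 ± 0.22 and 0.88 ± 0.19, of which the last alone passed (limma adjusted p = 0.055, 0.1 and 0.0496). That call of 1425515_at was lost with an offset of 0.01 (adjusted p = 0.0517), quantile normalization (adjusted p = 0.0622) or no variance trend (adjusted p = 0.0683), and in 6 of 8 refits without 1 array. 1451737_at passed with an offset of 0.25 (adjusted p = 0.0409) or without LFD wildtype replicate 1 or 2 (adjusted p = 0.035 and 0.0328). The test of the difference itself, the diet by genotype interaction, gave -1.39 ± 0.43, -1.38 ± 0.31 and -0.52 ± 0.27, and none passed (limma adjusted p = 0.341, 0.218 and 0.537). Over all members the interaction called 0 of 19 probe sets, 2 of them at an unadjusted p under 0.05, and 0% of all probe sets, 2517 of which had an unadjusted p under 0.05.

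Foxo1 1416982_at had ratios of 2.59 and 2.90 in HFD Alb::GC and 2.38 and 2.22 in HFD wildtype livers, against 0.99 and 0.79 in LFD Alb::GC and 0.90 and 0.67 in LFD wildtype livers. Each HFD array was above 2 and each LFD array below 1. It rose by 1.54 ± 0.14, or 2.91-fold (limma adjusted p = 0.00223). Foxo1 1416981_at had 1.76 and 2.26 in HFD Alb::GC and 1.32 and 1.29 in HFD wildtype livers, against 0.87 and 1.18 in LFD Alb::GC and 0.97 and 0.41 in LFD wildtype livers. It rose by 0.96 ± 0.27, or 1.95-fold (limma adjusted p = 0.0412), and lost the call after quantile normalization (adjusted p = 0.0538), without the variance trend (adjusted p = 0.054) and in 6 of 8 refits without 1 array. Foxo1 1416983_s_at had 1.15 to 1.41 in HFD livers and 0.41 to 1.10 in LFD livers, with a difference of 0.84 ± 0.28 that missed the threshold (limma adjusted p = 0.0714). It passed without LFD wildtype replicate 1 (1.17, adjusted p = 0.00848) or replicate 2 (0.51, adjusted p = 0.0317). Foxo1 1456529_at overlapped between the diets, with a difference of -0.48 ± 0.32 (limma adjusted p = 0.297).

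Foxo3 1434832_at had ratios of 1.73 and 1.91 in HFD Alb::GC and 1.51 and 1.59 in HFD wildtype livers, against 0.60 and 0.96 in LFD Alb::GC and 0.92 and 0.91 in LFD wildtype livers. The groups were well apart, and it rose by 0.97 ± 0.15, or 1.95-fold (limma adjusted p = 0.00898). The other Foxo3 probe sets overlapped between the diets and did not share this difference, at 0.26 ± 0.32 for 1434831_a_at and -0.09 ± 0.32 for 1450236_at (limma adjusted p = 0.564 and 0.859).

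Akt2 ratios lay between 0.81 and 1.08 in HFD livers and between 0.85 and 1.21 in LFD livers. Its differences were -0.02, with an interval of -0.35 to 0.31, and -0.22, with an interval of -0.51 to 0.07 (limma adjusted p = 0.933 and 0.206). Akt1 1425711_a_at had 1.08 and 1.11 in HFD Alb::GC and 1.04 and 1.07 in HFD wildtype livers, against 0.85 and 0.82 in LFD Alb::GC and 0.48 and 0.78 in LFD wildtype livers. The diets did not overlap, and the difference of 0.55 ± 0.18 missed the threshold (limma adjusted p = 0.0603). It passed without LFD wildtype replicate 2 (0.72, adjusted p = 0.0238). The other Akt1 probe set overlapped, at -0.10 ± 0.18 (limma adjusted p = 0.721).

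For the counts by genotype too, the shares of all probe sets are not a like comparison. Taken by genotype, 4 member probe sets rose and 1 fell in wildtype livers, 26.3% where 14.6% of all probe sets passed (limma), 7.97% upward and 6.63% downward. Beside Pik3r1 these were Foxo1 1416982_at, with a rise of 1.51 ± 0.19 (adjusted p = 0.00977), and Insr 1450225_at, which fell by 1.11 (adjusted p = 0.0312). The Insr call was lost after quantile normalization (limma adjusted p = 0.0528). It was also lost without LFD wildtype replicate 1 or 2, LFD Alb::GC replicate 1 or HFD Alb::GC replicate 1. Its difference was -1.16 to -1.05 over the refits that each left out 1 array. In Alb::GC livers 3 rose and 0 fell, 15.8% where 6.77% of all probe sets passed, 4.64% upward and 2.13% downward. Beside Pik3r1 1425515_at these were Foxo1 1416982_at, with 1.58 ± 0.19 (adjusted p = 0.0143), and Foxo3 1434832_at, with 1.20 ± 0.21 (adjusted p = 0.0319). Each group held 2 arrays, and without either HFD wildtype array all 5 wildtype calls were lost (adjusted p = 0.0501 to 0.115), as all 3 Alb::GC calls were without either HFD Alb::GC array (adjusted p = 0.0624 to 0.183).

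RNA integrity measures moved with the diet. The 3′ minus 5′ log2 difference was -0.71 to -0.33 in HFD livers and -0.16 to 0.21 in LFD livers for beta-actin, and -0.31 to -0.15 in HFD livers and 0.04 to 0.22 in LFD livers for Gapdh. Neither overlapped between the diets, and their part in the HFD results was not tested. The mean ratio of 7 endothelial markers was 1.17 to 1.33 in HFD livers and 0.764 to 1.08 in LFD livers, with 2 markers higher, and that of 4 pancreas markers 0.395 to 0.795 in HFD livers and 1.05 to 1.28 in LFD livers, with 2 lower. Means of the other lists overlapped. In them, 3 of 9 hepatocyte and 2 of 4 cholangiocyte markers were lower, and of 4 neutrophil markers 1 was higher and 1 lower. Of 9 macrophage markers 1 was higher, and 1 of 8 stellate cell and fibroblast and 1 of 4 skeletal muscle markers were lower. Of all probe sets 13.5% rose and 14% fell, and the arrays of 28.8% did not overlap. The part of the marker shifts was not tested either.

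The 6 probe sets that rose on HFD, of Pik3r1, Foxo1 and Foxo3, are 6 of the 11 that rose with AP20187, and Grb14 fell in both experiments. Over all probe sets, 760 rose in both experiments, 24.5% of those that rose with AP20187 and 24.8% of those that rose on HFD. Likewise 901 fell in both, 19.5% of those that fell with AP20187 and 28.4% of those that fell on HFD. These shares too are not a like comparison for the members, which were chosen with earlier results known. The Grb14 call was lost after quantile normalization in each experiment. Irs1 was the 1 probe set with opposite calls, rising with AP20187 and falling on HFD. Its call with AP20187 was lost with the beta-actin covariate, which ran nearly along the treatment, at a difference of 0.45. The share of opposite calls over all probe sets was not computed. The experiments share no arrays, and the difference between them was not tested.

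The 57 other pathway genes were read on HFD by the same probe sets. Of all probe sets 13.5% passed upward and 14% downward, which is again not a like comparison. Of the 57 genes, 14 passed upward, 10 passed downward and 33 missed the threshold, with a median difference of -0.03. These counts were not stable: quantile normalization gave 5 downward, and leaving out 1 array at a time gave 4 to 13 upward and 4 to 6 downward. Of the 7 ligands and binding proteins, 2 fell and 0 rose. Igfbp1 had ratios of 0.16 and 0.16 in HFD Alb::GC and 0.14 and 0.10 in HFD wildtype livers, against 1.48 and 1.44 in LFD Alb::GC and 0.83 and 1.31 in LFD wildtype livers. It fell by 2.77 on the log2 scale (SE 0.29, limma adjusted p = 0.00337), where it rose with AP20187. Igfbp2 fell by 0.85 (limma adjusted p = 0.0357). It had 0.96 and 0.86 in HFD Alb::GC and 0.30 and 0.33 in HFD wildtype livers, against 0.74 and 1.04 in LFD Alb::GC and 1.46 and 0.94 in LFD wildtype livers, so its low arrays were those of HFD wildtype livers. Its diet difference was 0.05 in Alb::GC and -1.75 in wildtype livers, with an interaction that did not pass (limma adjusted p = 0.25).

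Of the FoxO list, 2 of 8 rose and 3 fell on HFD. G6pc had 0.68 and 0.68 in HFD Alb::GC and 0.43 and 0.53 in HFD wildtype livers, against 1.17 and 1.23 in LFD Alb::GC and 1.35 and 1.41 in LFD wildtype livers, and fell by 1.11 (limma adjusted p = 0.00481). Sesn1 fell by 0.64 (limma adjusted p = 0.0134), though another of its probe sets rose by 0.69 (limma adjusted p = 0.00829). Pck1, the other classical gluconeogenic enzyme gene, rose by 0.99 and its coactivator Ppargc1a by 0.90 (limma adjusted p = 0.0176 and 0.0111), though a second Pck1 probe set had a difference of 0.16 that did not pass. Of the 4 insulin-induced liver genes, 3 rose: Srebf1 by 0.95, Fasn by 0.61 and Pklr, the liver pyruvate kinase gene, by 0.57 (limma adjusted p = 0.0271, 0.0412 and 0.0208). Fasn was 1.08 and 0.96 in HFD Alb::GC and 2.50 and 2.70 in HFD wildtype livers, against 1.22 and 1.04 in LFD Alb::GC and 1.26 and 0.76 in LFD wildtype livers, so its high arrays were those of HFD wildtype livers.

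Of the adaptors, 3 of 9 rose and 3 fell on HFD. Gab1 rose by 0.99 and Grb2 by 0.93, and Irs4, an Irs family member, fell by 2.05 (limma adjusted p = 0.0119, 0.00393 and 0.0148). The adaptor gene Sh2b2 fell by 0.84 (limma adjusted p = 0.0169). Another Grb2 probe set had a difference of -0.34. Of the receptors and clearance genes, 2 of 5 rose, Ceacam1 by 0.90 and Igf2r by 0.80 (limma adjusted p = 0.00464 and 0.0054), and of the inhibitors 1 of 9, Socs3, by 0.82 (adjusted p = 0.0237). Socs3 had 1 and 1.22 in HFD Alb::GC and 1.49 and 1.83 in HFD wildtype livers, against 1.01 and 1 in LFD Alb::GC and 0.71 and 0.42 in LFD wildtype livers. Its diet difference was 0.13 in Alb::GC and 1.51 in wildtype livers, with an interaction that did not pass (limma adjusted p = 0.279). Ceacam1 probe sets disagreed, one of them at -0.57, and a second Igf2r probe set had 0.07. Pik3ca, a catalytic subunit of PI3K, was the 1 of 4 genes of its list to rise, by 0.44 (limma adjusted p = 0.0322), and of 11 downstream kinases and regulators 2 rose and 2 fell. Tsc1, the partner of Tsc2, rose by 0.61 and the mTOR activator Rheb by 0.45 (limma adjusted p = 0.0319 and 0.0186). Mapk8 fell by 0.64 and Prkcz by 0.76 (limma adjusted p = 0.0353 and 0.0437), though another Mapk8 probe set rose by 1.01 (limma adjusted p = 0.004).

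The Alb::GC transgene was compared with wildtype within each diet and over both. None of the 19 probe sets passed in any of the 3 comparisons (0 of 19 each in limma, with 1 on HFD, 1 on LFD and 2 over both diets at an unadjusted p under 0.05). Of all probe sets 0.133% passed on HFD (0.0354% upward and 0.0972% downward), 0% on LFD and 0% over both diets, with 2525, 2337 and 2596 at an unadjusted p under 0.05. Among the other 57 pathway genes 0 passed.

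Values of a few single members are given here, none of which passed. Groups of 2 arrays often fail to overlap by chance, so a lack of overlap alone says little. Irs2 on LFD was 1.82 and 1.58 in Alb::GC livers, against 0.77 and 0.96 in wildtype livers, with no overlap and a difference of 0.94 ± 0.32 (limma adjusted p = 0.423). On HFD the Irs2 groups overlapped, with a difference of 0.33 ± 0.32 (limma adjusted p = 0.771). Pik3r1 1425514_at on HFD was 1.82 and 1.45 in Alb::GC livers, against 3.92 and 2.82 in wildtype livers, a difference of -1.01 ± 0.22 (limma adjusted p = 0.165). Insr 1421380_at over both diets differed by -0.64, with an interval of -1.22 to -0.07 (limma adjusted p = 0.396). With 2 arrays a group these intervals are wide, and a missed threshold does not show that the genotypes are alike.

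For the receptor and its adaptors, the genes with the most similar profile were named by Pearson correlation of log2 values over the 8 arrays of an experiment, 1 probe set a gene, as a description of arrays that share their groups. Insr was read by 1421380_at, which missed the threshold with AP20187 and on HFD, and not by 1450225_at, which fell on HFD. In the AP20187 experiment Insr was most like Rab10 (r = 0.974), Sema6c (0.973) and Bmpr1b (0.966). Irs1 was most like Dync1li1 (0.992), Thap11 (0.989) and Epop (0.988), and Irs2 most like Nab2 (0.985), Sik1 (0.983) and Kdm7a (0.983). In the diet experiment Insr was most like Rsu1 (0.981), Ghdc (0.969) and Ska2 (0.966). Irs1 was most like Eml3 (0.985), Ube2g2 (0.981) and Erg28 (0.981), and Irs2 most like Clcn3 (0.961), Ccr2 (0.941) and Golph3l (0.938). No gene stood in the nearest 3 of both experiments.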

How the data were processed

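Liver RNA was measured on 16 Affymetrix arrays. Per the labels' protocols, RNA was extracted with STAT60 and RNeasy and biotinylated cRNA was made from it. The deposited values are a linear ratio for each probe set and array, a unit read from the values, since neither labels nor file headers name the scanner software, the summary method or the denominator of the ratio. No depth applies to arrays, and their number limits the precision. Groups came from each array's label. The 64 control probe sets were left out, and 22626 were tested, of which 20380 had 1 gene symbol in the platform annotation, 691 several and 1555 none. Differences were fitted on log2(ratio + 0.05) with limma 3.58.1 in R 4.3.3 (lmFit, eBayes with trend, two-sided, Benjamini-Hochberg over all probe sets), apart for the 2 experiments, with 6 and 4 residual degrees of freedom, and tested on simulated data. Replicates correlated at 0.442 to 0.658 and shared at most 2.46% equal values, so none was a duplicate. Members and lists were chosen with earlier results of these data known. All members were named. Of each pathway list up to 4 genes past the threshold with AP20187 and with HFD averaged over genotypes were named by smallest p, with the probe set of smallest spread within groups, and the 3 genes most like Insr, Irs1 and Irs2. Other offsets, scalings, variance models, filters and left-out arrays were tried.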

Additional observations from a re-analysis of the deposited data

Results flagged for a closer look

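In groups of 4 arrays, 124 groups of members and named pathway genes were examined, and in 11 of them 1 array stood far from the others of its group. Chance gives about 1 such group in 20. Among the members, Irs2 was at 0.11 in untreated replicate 4, where the other untreated livers had 0.62 to 0.74, and Akt2 1424480_s_at was at 1.14 in untreated replicate 2, where the others had 1.01 to 1.03. In the pathway lists, untreated replicate 2 stood apart for Sos1 at 0.88, Pik3r2 at 1.01 and Sh2b2 at 1.30. Untreated replicate 1 stood apart for Sesn3 at 1.95, and untreated replicate 4 for Pck1 at 1.14. Of the AP20187-treated livers, replicate 3 stood apart for Fasn at 1.23 and Ppargc1a at 1.03, replicate 1 for Tsc1 at 1.05, and replicate 2 for Pck1 at 0.97.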

How the results depend on the processing

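No member call reversed under any alternative. Of the 12 member calls with AP20187, 12 held with an offset of 0.01 or 0.25, median centring, no variance trend or a filter on low values, while members that fell numbered 0 after quantile normalization and 0 with the beta-actin covariate, against 1. With that covariate 6 pathway genes rose and 4 fell, against 15 and 18. It ran nearly along the treatment, so calls lost with it cannot be told apart from lost precision. On HFD in wildtype livers 0 members fell after quantile normalization, against 1. In Alb::GC livers, pathway genes that rose on HFD numbered 5 with median centring and 8 with the probe set of highest mean, against 3, and those that fell numbered 2 with an offset of 0.25, against 1. Over both genotypes 5 pathway genes fell on HFD after quantile normalization, against 10. Leaving out 1 array at a time gave 10 to 11 member rises and 1 to 2 falls with AP20187, and 10 to 14 pathway rises and 13 to 18 falls. For HFD it gave 0 to 6 member rises, 0 to 1 falls, 0 to 8 pathway rises and 0 to 6 falls in wildtype livers. In Alb::GC livers it gave 0 to 5 member rises, 0 to 3 pathway rises and 0 to 2 pathway falls. Over both genotypes it gave 5 to 8 member rises, 1 to 3 falls, 4 to 13 pathway rises and 4 to 6 falls. A group left with 1 array was assumed to vary like the others. The cause of these changes was not tested. No paired analysis was possible because array titles run through in 1 sequence, so groups share no replicate numbers. Arrays with 2 replicates a group limit the diet and genotype results.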
